A study of Homo sapiens with 4 samples.

Results

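Sense intronic and sense overlapping long noncoding RNA (lncRNA) genes are annotated on the same strand as a protein-coding gene. A sense intronic gene lies within an intron of the coding gene, here called its host, and shares no exon with it by the definition of the class. A sense overlapping gene has an intron that holds a coding gene, or otherwise overlaps one on the same strand. Members were taken by class from GENCODE release 29 on GRCh38, chromosomes 1 to 22, with no use of measured values. Of 106179 transcripts in the deposited table, 1265 belonged to 1046 such genes. They comprised 931 sense intronic transcripts of 873 genes and 334 sense overlapping transcripts of 173 genes, against 937 and 338 in the annotation of those chromosomes. A further 16 sense intronic and 5 sense overlapping transcripts on X or Y were left out.

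The study sequenced RNA of cells carrying the label HepG2, an established line that the labels class as liver hepatocellular carcinoma, and compared wild type with cells resistant to oxaliplatin, a platinum drug that forms DNA crosslinks. Each group had 2 libraries, from cells grown in DMEM with serum, and the labels give the treatment as none. Whether the resistant cells were 1 clone, at what dose they were selected, and whether the libraries within a group were grown as separate cultures is not given in the sources used here. P-values thus rest on the spread between 2 libraries per group, and that spread may be technical. In bulk RNA, fewer cells of a kind and less RNA per cell cannot be told apart.

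RNA of these classes has several known sources. Some members have their own promoter and polyadenylation site, some are processed from the intron of the host pre-mRNA or serve as host of a small RNA, and some are fragments of unspliced host RNA that were recorded as separate genes. A member and the unspliced RNA of its host have the same strand and share the sequence of the intron. Their reads cannot be told apart in counts of this kind, and the use of strand in counting is not stated in the labels. The host was therefore measured beside each member, as the sum of the noncoding transcripts of the host in the table (retained introns and other transcripts without a coding sequence). These sums do not measure the mRNA of the host. Reads of that mRNA may still enter them where exons are shared, and their part was not tested.

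Deposited counts came to 38113398 and 34898860 in the wild-type libraries and 43473826 and 44063444 in the resistant ones. CPM values below are counts scaled to a common library size with TMM factors, which weight the libraries by their trimmed log ratios, and a limit of 3 counts per library, for a count of 0, corresponds to 0.0660 to 0.0908 CPM on the transcript scale. Such limits cover counting error only. The noncoding transcripts of hepatocyte marker genes were at or near 0. Of 20 markers, 13 had a transcript in the table, 9 of these had no count in any library (among them *AFP*, *TTR*, *TF*, *SERPINA1*, *FGB*, *AHSG*, *CYP2E1* and *ITIH2*), and *ALB* had 8 counts in 1 wild-type library and 0 in the other 3. Their summed level was 0.472 and 0.344 CPM in the wild-type libraries and 0.414 and 2.29 CPM in the resistant ones. Of 10 fibroblast and mesenchymal markers, all in the table, 3 were at 0 in every library (*COL1A2*, *SPARC* and *LUM*). The summed level was 166.8 and 195.9 CPM in the wild-type libraries and 177.6 and 147.7 CPM in the resistant ones. Most of that sum came from *FN1* and *VIM*. *FN1* had 3008 and 2334 counts in the wild-type libraries and 4462 and 3659 in the resistant ones, and *VIM* 3173 and 4251, then 3125 and 2782. Each of the other markers of this list had at most 160 counts in a library. Endothelial and haematopoietic markers summed to at most 0.0787 and 0.621 CPM. These values concern noncoding transcripts only, and their part in the results below was not tested.

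The sequences shown first are the last 60 bases of members that the results below turn on, 5′ to 3′, from the GENCODE release 29 transcripts on GRCh38. Capitals mark the polyadenylation signal AATAAA or ATTAAA, searched on the transcript strand within the last 50 bases. A match is a description and not a site of cleavage. The first 5 hold a signal. They are *AC096947.1* in *NFIA* (chr1:61125143-61125202, plus), *AL163051.2* in *PAPOLA* (chr14:96537845-96537904, plus), *MAGI1-IT1* in *MAGI1* (chr3:65872815-65872874, minus, with 2 overlapping matches), *AC103796.1* at *BDNF* (chr11:27696312-27696371, minus) and *AL392083.1* in *ADARB2* (chr10:1290018-1290077, minus).
AC096947.1: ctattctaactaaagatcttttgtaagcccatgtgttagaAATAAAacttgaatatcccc
AL163051.2: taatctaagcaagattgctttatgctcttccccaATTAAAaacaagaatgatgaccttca
MAGI1-IT1: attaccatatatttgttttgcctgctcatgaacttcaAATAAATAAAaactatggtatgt
AC103796.1: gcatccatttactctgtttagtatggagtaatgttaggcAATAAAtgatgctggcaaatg
AL392083.1: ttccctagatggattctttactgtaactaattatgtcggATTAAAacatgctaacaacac

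The other 4 hold neither signal in that window. They are *MIR31HG* (chr9:21455642-21455701, minus), *AL731577.2* at *ZRANB1* (chr10:124942822-124942881, plus), *AL513304.1* in *ADARB2* (chr10:1361001-1361060, minus) and *AL136984.1* in *POU2F1* (chr1:167380941-167381000, plus), which has 14 A among its last 20 bases.
MIR31HG: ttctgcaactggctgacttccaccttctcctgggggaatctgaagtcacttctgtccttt
AL731577.2: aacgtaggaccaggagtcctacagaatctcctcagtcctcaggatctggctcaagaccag
AL513304.1: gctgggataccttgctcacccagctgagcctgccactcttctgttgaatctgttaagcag
AL136984.1: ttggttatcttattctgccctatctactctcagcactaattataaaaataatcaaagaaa

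One junction is shown because the member with the smallest p among those with counts in every library, *AC138965.2* at *THOC3*, consists of 2 exons that lie far apart. Its last 30 bases of exon 1 are in lower case and the first 30 bases of exon 2 in capitals. The stretch spans chr5:175907390-175958481 on the minus strand.
AC138965.2: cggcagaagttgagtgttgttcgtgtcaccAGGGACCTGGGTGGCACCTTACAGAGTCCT

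Across the class, 437 of 931 sense intronic transcripts (46.9%) and 126 of 334 sense overlapping transcripts (37.7%) held such a signal. The share was 42.7% of lincRNA transcripts, 37.0% of antisense transcripts, 20.5% of retained introns of coding genes and 26.8% of all transcripts with a release 29 name. At least 12 A in the last 20 bases were found in 104 sense intronic (11.2%) and 23 sense overlapping transcripts (6.89%), against 7.99% of lincRNA transcripts, 5.16% of retained introns and 6.003% of all named transcripts. Sense intronic transcripts thus more often ended in A-rich sequence and more often held a signal than retained introns did, as counts over the annotation. The signal did not go with detection: 49.7% of sense intronic transcripts with a signal and 53.4% without one passed the expression filter, as did 34.1% and 29.3% of sense overlapping ones.

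Members were short and often unspliced. The median spliced length was 553 bases for sense intronic transcripts (94 to 13454) and 781.5 bases for sense overlapping ones (97 to 23112), and 40.7% and 20.1% had 1 exon, against 10.4% of lincRNA, 7.87% of antisense and 2.03% of retained intron transcripts. A same-strand coding host was found for 829 of 873 sense intronic genes, in 714 different hosts, and 824 of these genes lay wholly inside it. Of the sense intronic transcripts, 803 lay within an intron of the host (a gap between the merged exons of its coding transcripts), at a median position of intron 4 of 13, with 175 (21.8%) in the first intron. These introns had a median length of 23628 bases, and the member lay a median of 6044 bases downstream of one exon and 9957 bases upstream of the next. Only 17 sense intronic transcripts shared exon bases with a host transcript of the table, and 22 shared them with coding transcripts of the host. For sense overlapping transcripts these numbers were 18 and 80. Sense overlapping genes were arranged otherwise, with 106 that had a same-strand coding host and 67 that had none, 42 inside the host and 18 that held the whole host.

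Small RNA genes lay on the same strand in exons of 6 sense intronic and 4 sense overlapping genes and, as miRNAs, in introns of 7 and 9. *MIR31HG* holds *MIR31* in an intron, *SNHG20* holds *SCARNA16* and *MIR6516* in an exon of the isoforms ENST00000366365 and ENST00000648926 and in an intron of the others listed, and *AL365436.2*, in *TUFT1*, holds *MIR554* in its intron. *ST7-OT4*, in the *ST7* tumour suppressor candidate gene, has exons that cover the structured RNA families listed as RF02187 and RF02188. The length class of RNA that the libraries retained is not given in the sources used here.

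Of the 1265 member transcripts, 466 had no count in any library, 799 had at least 1 count and 610 had a count in all 4 libraries. The filter of edgeR at a minimum count of 10 left 585, made up of 481 of 931 sense intronic (51.7%) and 104 of 334 sense overlapping (31.1%). The same filter left 39.9% of all transcripts, 14.3% of lincRNA, 23.5% of antisense and 69.8% of retained intron transcripts. Sense intronic members were therefore detected more often than other lncRNA classes and less often than retained introns, as shares of the annotation and with no test. Among 1-exon transcripts the shares were 59.6% for sense intronic, 53.7% for sense overlapping, 31.4% for lincRNA and 46.6% for antisense. Much of the sense overlapping class consisted of isoforms without counts: *SOX2-OT*, the lncRNA that holds the *SOX2* gene, had 89 transcripts, of which 86 had no count in any library and 1 passed. The *SOX2-OT* sum was 420 and 594 counts in the wild-type libraries and 0 and 414 in the resistant ones. All 8 transcripts of *AC005062.1* were at 0.

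Detection of a member went with the level of its host. Of 529 sense intronic genes whose host passed the filter, 385 (72.8%) passed too, against 19 of 177 (10.7%) whose host was in the table and did not pass. By mean counts of the host per library, 17 of 155 (10.97%) passed under 10 counts, 35 of 79 (44.3%) from 10 to 100, 114 of 169 (67.5%) from 100 to 1000 and 238 of 303 (78.5%) at 1000 or more. Sense overlapping genes showed the same order at its ends, with 1 of 18 (5.56%) under 10 counts and 24 of 29 (82.8%) at 1000 or more. Without a same-strand coding host, 16 of 44 sense intronic genes (36.4%) and 31 of 67 sense overlapping genes (46.3%) passed. By position in the host, the shares lay closer together: with a host that passed, 58 of 93 genes (62.4%) in intron 1 were detected, against 45 of 57 (78.9%) in intron 2, 86 of 110 (78.2%) in introns 3 to 5 and 170 of 227 (74.9%) further down.

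**Figure D1:**
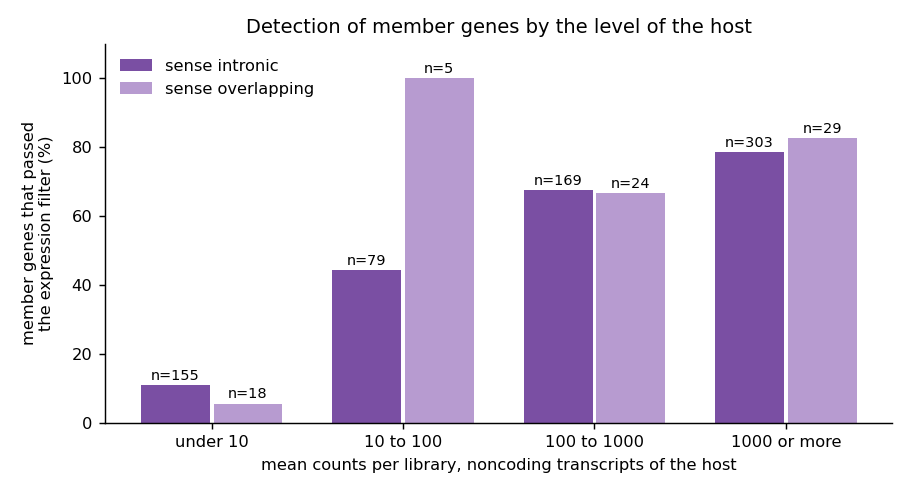
Share of member genes that passed the expression filter (y axis, percent), by the mean counts per library of the noncoding transcripts of the host (x axis), for sense intronic and sense overlapping genes, with the number of genes above each bar. The sense intronic share goes from 10.97% in hosts under 10 counts to 78.5% in hosts with 1000 or more, and the full bar for sense overlapping genes rests on 5 genes.

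Members were mostly far below their host. In the 385 sense intronic pairs in which both passed, the median level per kilobase of transcript was 1.86 CPM per kb for the member and 47.2 CPM per kb for the host sum, and 31 members stood above their host. In the 45 sense overlapping pairs the medians were 4.22 and 25.5 CPM per kb, with 11 members above the host. Levels of member and host were weakly related across pairs (Spearman's rho 0.15 over 385 sense intronic pairs, a description, since pairs share libraries and some share a host). The lowest and the highest mean of a tested member were 0.145 and 717 CPM.

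The members together took a small part of each library. Sense intronic members held 0.261% and 0.257% of all counts in the wild-type libraries and 0.284% and 0.293% in the resistant ones, a mean of 0.259% ± 0.00289 and 0.288% ± 0.00662 (SD, n = 2). Sense overlapping members held 0.240% and 0.231% of the wild-type libraries and 0.379% and 0.274% of the resistant ones, 0.236% ± 0.00592 and 0.327% ± 0.0748. The values did not overlap between the groups in either class, in a design where no exact permutation test of 2 libraries against 2 can go below p = 0.33. For sense overlapping members the difference rested in part on *MIR31HG* in resistant library 1: without *MIR31HG* the means were 0.196% ± 0.00379 and 0.221% ± 0.0149. The 3 most abundant members held a mean of 25.02% of the sense intronic counts of wild type and 28.0% of those of resistant cells, and 64.2% and 65.8% of the sense overlapping counts. lincRNA transcripts took 3.33% and 3.45% of the libraries.

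Among the 8 most abundant sense intronic members, the groups overlapped for 7. *AC006064.5*, a 1-exon transcript in an intron of *NCAPD2*, the gene of a condensin I subunit, lies wholly within *SCARNA10*, the gene of a small Cajal body RNA on the same strand, so its counts may hold reads of that small RNA. *AC006064.5* had 10517 and 10482 counts in the wild-type libraries and 9326 and 22728 in the resistant ones. *AC096947.1* (chr1:61124733-61125202, plus), a 1-exon transcript in intron 6 of 17 of *NFIA*, the gene of a nuclear factor I transcription factor, had 8055 and 5738 counts in the wild-type libraries and 10332 and 9257 in the resistant ones. The groups overlapped for *AC006064.5* and, on the CPM scale, for *AC096947.1*, which had 224 and 174 CPM in the wild-type libraries and 227 and 211 CPM in the resistant ones. The only noncoding transcript of *NFIA* in the table had no count in any library, whereas *AC096947.1* was counted. That transcript does not measure the mRNA or the unspliced RNA of *NFIA*, so the level of the host gene is not known here.

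*AL163051.2* (chr14:96537170-96537904, plus) lies 109 bases downstream of an exon, in intron 12 of 21 of *PAPOLA*, the gene of the nuclear poly(A) polymerase. It had 10500 and 2468 counts in the wild-type libraries and 14921 and 4010 in the resistant ones, and *PAPOLA* had 6418 and 3332, then 9698 and 5701. Member and host were both higher in library 1 than in library 2 of either group. Its log2 fold change of 0.20 ± 1.02 (SE) changed sign when a library was left out, to -0.47 without wild-type replicate 2 and -1.003 without resistant replicate 1. *MAGI1-IT1* (chr3:65872815-65954558, minus), in the first intron of the junction scaffold gene *MAGI1*, had 7977 and 5330 counts in the wild-type libraries and 7859 and 6996 in the resistant ones. *MAGI1* itself had 32381 and 37540, then 34024 and 43652. *AL365436.2* (chr1:151540516-151561855, plus) had 6221 and 6177, then 6560 and 8683. From end to end it spans nearly the whole first intron of *TUFT1*, the gene of tuftelin. That intron has 21664 bases, and the spliced length of *AL365436.2* is 526 bases. The groups overlapped for each of these members.

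For 3 of the 8, 1 library had no count at all while the others had at least 1818. *AC087481.3* (chr15:30926514-30928407, plus), a 1-exon transcript in intron 10 of 14 of *FAN1*, which encodes a nuclease that repairs DNA interstrand crosslinks, had 0 and 3642 counts in the wild-type libraries and 5956 and 2911 in the resistant ones. *FAN1* had 983 and 1173, then 1837 and 1317, so the host sum was not at 0 in that library. *AP000526.1* (chr22:15796959-15798346, plus) had 0 and 5040, then 4592 and 6696. *AP000526.1* has no same-strand coding host and is 99.8% identical over 1300 bases to *DUXAP10*, a pseudogene on chromosome 14 with 1984 and 8092, then 7789 and 3066 counts, so the division of reads between these copies is uncertain.

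*ST7-OT4* is the third. Its transcript ENST00000471110 (chr7:116954463-117098806, plus) had 4164 and 7202 counts in the wild-type libraries and 0 and 1818 in the resistant ones. Summed over its 6 transcripts, *ST7-OT4* had 4394 and 7521 counts in the wild-type libraries and 668 and 2079 in the resistant ones, for a log2 fold change of -2.51 ± 0.76 (SE; adjusted p = 0.515, edgeR). The *ST7* sum had 5835 and 5918, then 5936 and 8890. The groups did not overlap for *ST7-OT4*, as in 43% of all tested gene sums (22.5% higher and 20.5% lower in resistant cells), and overlapped for *ST7*. Since 70% of ENST00000471110 lies in exons of coding *ST7* transcripts, reads of *ST7* mRNA may enter this count, and their part was not tested.

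**Figure D2:**
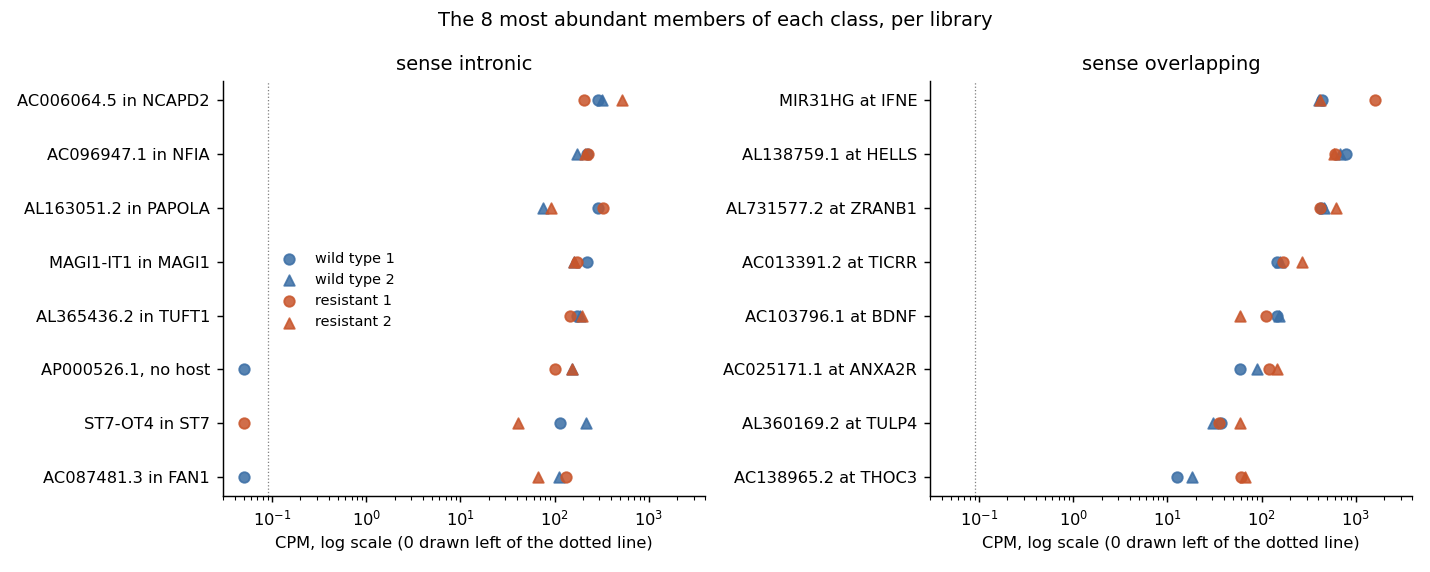
CPM of the 8 most abundant members of each class in each of the 4 libraries (log axis, with a count of 0 drawn left of the dotted line), with circles for replicate 1 and triangles for replicate 2. *AP000526.1*, *ST7-OT4* and *AC087481.3* each have 1 library at 0, and *MIR31HG* has 1 resistant library apart from the other 3.

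The most abundant sense overlapping member was *MIR31HG* (ENST00000304425, chr9:21455642-21559669, minus, 4 exons), the host RNA of miR-31, which spans the interferon epsilon gene *IFNE*. It had 15713 and 13338 counts in the wild-type libraries and 73257 and 18375 in the resistant ones, or 436 and 404 CPM against 1611 and 419 CPM. Resistant library 1 stood apart, and resistant library 2 lay between the wild-type libraries on the CPM scale. The log2 fold change of *MIR31HG* was 1.27 ± 0.76 (SE; adjusted p = 0.892, edgeR) and came to -0.0042 without resistant replicate 1.

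*AL138759.1* (chr10:94577439-94611238, plus), which overlaps *HELLS*, the gene of a chromatin remodelling helicase, had 28437 and 22558 counts in the wild-type libraries and 27295 and 26059 in the resistant ones. On the CPM scale both resistant libraries, at 600 and 594, lay below both wild-type ones, at 789 and 683. *AL731577.2* (chr10:124917143-124942881, plus) at *ZRANB1*, a deubiquitinase gene, had 15592 and 15028, then 18807 and 26946 counts. The *ZRANB1* sum had 30 and 60, then 45 and 37 counts, and *AL731577.2* stood 452-fold above it per kilobase. Of *AL731577.2*, 77% lies in exons of coding *ZRANB1* transcripts, and of *AL138759.1*, 68% lies in those of *HELLS*. Reads of these mRNAs, which the table does not hold, may enter both counts, and their part was not tested.

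Both *AC013391.2* and *AC025171.1* had higher values in each resistant library than in either wild-type library. *AC013391.2* (chr15:89518523-89591956, plus) at *TICRR*, a gene of DNA replication initiation, had 147 and 159 CPM in the wild-type libraries and 168 and 269 CPM in the resistant ones. *AC025171.1* ENST00000503152 (chr5:43014736-43067419, minus), whose gene spans *ANXA2R*, had 59.6 and 90.2, then 121 and 147 CPM, a log2 fold change of 0.83 ± 0.38 (SE; adjusted p = 0.815, edgeR). Another isoform of *AC025171.1*, ENST00000314957, had 774 and 679, then 757 and 682 counts, with CPM values lower in both resistant libraries. In the other direction, *AC103796.1* (chr11:27696312-27877648, minus) at *BDNF*, the gene of a neurotrophin, had 147 and 155 CPM in the wild-type libraries and 111 and 59.5 CPM in the resistant ones, for a log2 fold change of -0.82 ± 0.44 (SE; adjusted p = 0.866, edgeR).

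Resistant and wild-type cells were compared with the edgeR quasi-likelihood test over all 42393 tested transcripts. No member passed Benjamini-Hochberg adjustment (0 of 585, smallest adjusted p = 0.335), nor did any other transcript, 0% of those tested. At an unadjusted p under 0.05 there were 20 members of 585, against 7.74% of all tested transcripts. Of these, 13 had a higher and 7 a lower level in resistant cells, where the share over all transcripts was 4.56% higher and 3.18% lower. The number came to 9 without resistant replicate 1. limma-voom called no member and 0% of all transcripts after adjustment, with 11 members at an unadjusted p under 0.05. DESeq2 called 11 members, against 5.33% of all transcripts. The common dispersion was 0.941, and on counts simulated with the dispersion estimated from these libraries the edgeR test called 0 of 100 transcripts changed 4-fold and 0 of 98 changed 16-fold. The test was therefore without power at these sizes, and a count of 0 does not show that members were alike in the 2 groups.

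The share of small p-values is given for each class with no test of the difference. Of the sense intronic members tested, 11 of 481 (2.29%) had an unadjusted p under 0.05 in edgeR, below the background of 7.74%, and of the sense overlapping ones 9 of 104 (8.65%), close to it. Shares below the background were also found for 1-exon transcripts of other classes: 1.63% of lincRNA, 3.03% of retained intron and 4.497% of antisense transcripts. Sense intronic transcripts with 2 or more exons had 2.35%, however, against 12.9% of such lincRNA transcripts. Groups did not overlap in 43.5% of sense intronic members (108 higher and 101 lower in resistant cells) and 51.9% of sense overlapping ones (32 and 22), against 40.3% of all transcripts, 21.4% higher and 18.9% lower. An absolute log2 fold change above 1 was found in 76 sense intronic members (15.8%) and 31 sense overlapping ones (29.8%), against 31.3% of all tested transcripts. The median log2 fold change was 0.03 for sense intronic and 0.15 for sense overlapping members, beside 0.02 over all transcripts.

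Libraries of a group also lay closer together for the members of both classes as a whole. The median absolute difference between the 2 libraries, in log2(CPM + 0.1), was 0.42 in wild type and 0.38 in resistant cells for sense intronic members, 0.43 and 0.40 for sense overlapping members, and 0.71 and 0.61 over all tested transcripts. lincRNA transcripts had 0.79 and 0.69 and retained introns 0.61 and 0.53. Transcripts with 1 exon had small values in every class, for example 0.42 and 0.35 for lincRNA and 0.36 and 0.31 for sense intronic transcripts. Sense overlapping transcripts with 2 or more exons were an exception, with 0.44 in wild type but 0.68 in resistant cells, above the 0.61 of all tested transcripts, and 11.8% of them had an unadjusted p under 0.05 in edgeR. A count of 0 in one library of a pair and over 1000 in the other occurred in 2 members in wild type, *AP000526.1* and *AC087481.3*, and in 1 in resistant cells, *ST7-OT4*. Of the sense intronic genes 831 of 873 have a single transcript in the table.

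**Figure D3:**
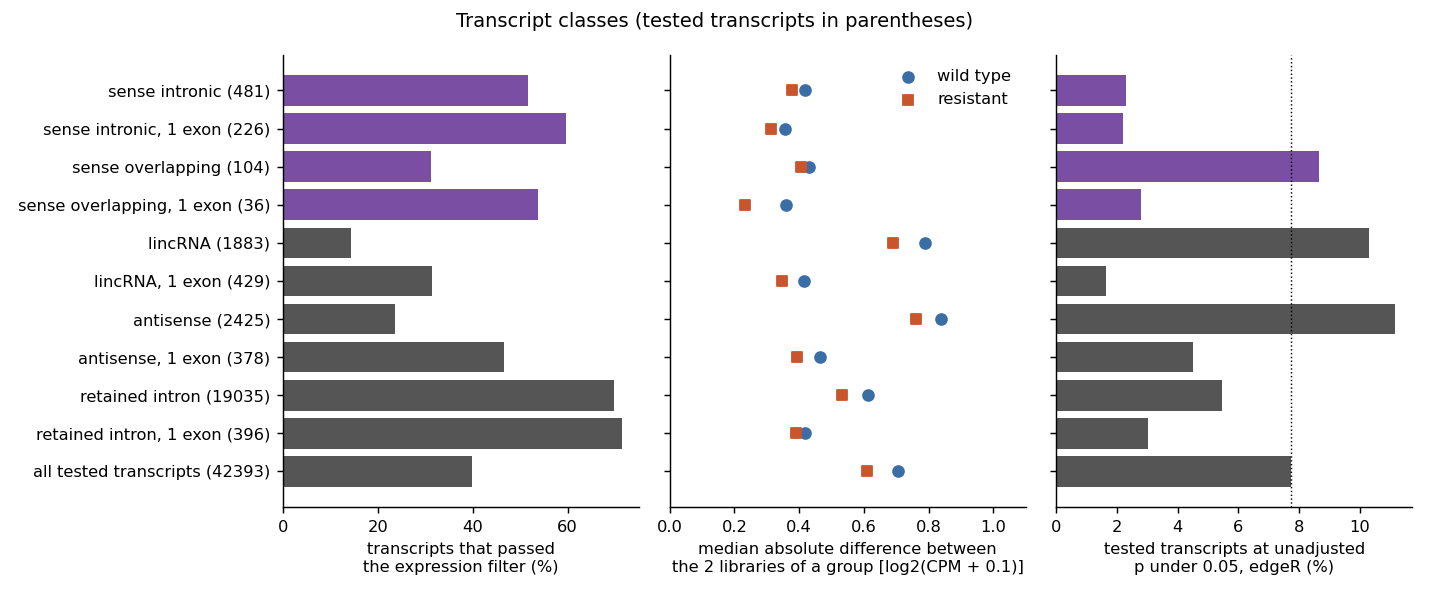
For 11 sets of transcripts, the share that passed the expression filter (left), the median absolute difference between the 2 libraries of each group in log2(CPM + 0.1) (middle) and the share of tested transcripts at an unadjusted p under 0.05 in edgeR (right, dotted line at the 7.74% of all tested transcripts). The sense classes, in purple, have small differences between libraries of a group, as do 1-exon transcripts of the other classes, and sense intronic members have 2.29% at that p.

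The member with counts in all 4 libraries and the smallest p was *AC138965.2* (ENST00000502813, chr5:175906939-175958538, minus), whose exon junction is shown above. It overlaps *THOC3*, the gene of a THO complex subunit that couples transcription to mRNA export. *AC138965.2* had 452 and 602 counts in the wild-type libraries and 2764 and 2918 in the resistant ones, 12.5 and 18.2 CPM against 60.8 and 66.5 CPM. Both resistant libraries were above both wild-type ones, 4.14-fold in the mean, with a log2 fold change of 2.05 ± 0.39 (SE; adjusted p = 0.355, edgeR). *THOC3* had 79 and 54, then 49 and 22 counts, a log2 fold change of -1.29 for the host sum beside 2.04 for the gene sum of *AC138965.2*. *AC138965.2* is 99.8% identical over 568 bases to *AC106795.1*, elsewhere on chromosome 5, whose 12 transcripts summed to 2307 and 2888 counts in the wild-type libraries and 58065 and 4840 in the resistant ones. Which of these copies the reads came from is uncertain.

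Another spliced member with a higher mean in resistant cells was *AC092811.1* (chr1:225447991-225465283, minus), a sense intronic gene with no same-strand coding host in release 29. It had 145 and 123 counts in the wild-type libraries and 1574 and 630 in the resistant ones, 6.32-fold higher in the mean, with a log2 fold change of 2.66 ± 0.63 (SE; adjusted p = 0.410, edgeR). The groups did not overlap, and resistant library 1 was above resistant library 2. DESeq2 called both *AC138965.2* and *AC092811.1*.

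Of the 8 members of smallest p with higher values in resistant cells, 5 had no count in wild type and few in resistant cells. *AC108134.4* (chr16:3106764-3109576, plus) had 0 and 0, then 32 and 29 counts, at least 7.84-fold higher against the limit of 3 counts per library. *AC009065.2* (chr16:2091436-2095017, plus) had 0 and 0, then 26 and 26, at least 6.69-fold higher, and *AC004847.1* (chr7:44958999-44960909, minus) had 14 and 12, at least 3.34-fold higher. These 3 sense overlapping genes had no same-strand coding host. Fold bounds cover counting error only. *AC018809.1* (chr3:9935706-9936258, plus), in intron 2 of 10 of *CRELD1*, had 2 and 2, then 17 and 12 counts, where the wild-type values lie within the limit for a count of 0.

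The remaining 2 of the 5 were isoforms of *SNHG20*, which overlaps *SEC14L1*, and both have *SCARNA16* in an intron. ENST00000561633 had 0 and 0 counts in the wild-type libraries and 29 and 86 in the resistant ones, which is at least 14.9-fold higher, and ENST00000564509 had 0 and 0, then 21 and 83, at least 13.5-fold higher. Over its 18 transcripts, of which 9 were tested and 8 had no count, *SNHG20* had 697 and 802 counts in the wild-type libraries and 899 and 1353 in the resistant ones, for a log2 fold change of 0.20 ± 0.38 (SE; adjusted p = 0.926, edgeR), with groups that overlapped on the CPM scale.

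Other isoforms were at 0 in both resistant libraries, and the sums of their genes were lower there too. *AC019080.1* overlaps *NFE2L2*, the gene of NRF2, the transcription factor of the oxidative stress response. Its transcript ENST00000430416 (chr2:177283514-177323164, minus, 5 exons) had 701 and 221 counts in the wild-type libraries and 0 and 0 in the resistant ones, at least 194.6-fold lower and the member with the smallest p (adjusted p = 0.335, edgeR). Another transcript, ENST00000456746, had 600 and 529, then 906 and 633 counts. The *AC019080.1* sum over 8 transcripts was 1612 and 1093 in the wild-type libraries and 1254 and 785 in the resistant ones, with both resistant libraries (33.4 and 21.5 CPM) below both wild-type ones (54.5 and 40.2 CPM) and a log2 fold change of -0.79 ± 0.39 (SE; adjusted p = 0.687, edgeR). *NFE2L2* noncoding transcripts had 3452 and 3493, then 3849 and 2858, with a log2 fold change of -0.44. Of ENST00000430416, 61% lies in exons of coding *NFE2L2* transcripts.

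*AL356966.1*, in *GGACT*, had a transcript with 54 and 15 wild-type counts against none in either resistant library (ENST00000454752, at least 14.5-fold lower). The gene sum of *AL356966.1* was 1030 and 533, then 448 and 156 counts, so that both resistant libraries were below both wild-type libraries for the sum as well (log2 fold change -1.75 ± 0.70 SE; adjusted p = 0.633, edgeR). *AP000688.1* (chr21:36069642-36126640, minus), which extends past the methyltransferase gene *SETD4*, had 218 and 42, then 0 and 0 counts, at least 54.5-fold lower, beside 244 and 949, then 969 and 851 for *SETD4*. The lncRNA gene *ELFN2* (ENSG00000243902, chr22:37339583-37385283, minus) shares its symbol with a coding gene and had 603 and 299, then 47 and 115 counts, a log2 fold change of -2.82 ± 0.76 (SE; adjusted p = 0.490, edgeR). Noncoding transcripts of the coding *ELFN2* gene had at most 2 counts in a library.

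A member and its host were lower together at *ADARB2*, which encodes a relative of the RNA-editing adenosine deaminases, with 2 members in its intron 3 of 9. *AL513304.1* (chr10:1361001-1361637, minus, 2 exons) lies 1390 bases downstream of the preceding exon and had 25 and 23 counts in the wild-type libraries and 8 and 4 in the resistant ones. *AL392083.1* (chr10:1290018-1293002, minus, 1 exon), further down the same intron, had 103 and 77, then 42 and 34 counts. *ADARB2* had 3095 and 2805, then 1291 and 1293. All 3 had both resistant libraries below both wild-type ones. The log2 fold change was -2.35 ± 0.65 for *AL513304.1* (SE; adjusted p = 0.512, edgeR), -1.61 ± 0.47 for *AL392083.1* (adjusted p = 0.547) and -1.58 ± 0.25 for the *ADARB2* sum (adjusted p = 0.346). Relative to *ADARB2*, *AL392083.1* stood at log2 ratios of -4.87 and -5.14 in the wild-type libraries and -4.82 and -5.11 in the resistant ones. Its ratio to the host thus differed more within the groups than between them. For *AL513304.1*, with 8 and 4 resistant counts, the ratios were -6.79 and -6.77, then -6.78 and -7.40.

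*AL133297.1* (chr16:1579242-1580308, minus) in intron 14 of 32 of *IFT140*, an intraflagellar transport gene, had 21 and 13 counts in the wild-type libraries and 6 and 4 in the resistant ones. *IFT140* had 1067 and 3004, then 694 and 542, and the gene-level log2 fold changes were -2.11 ± 0.75 and -2.14 ± 0.67 (SE; adjusted p = 0.584 and 0.524, edgeR). The log2 ratio of *AL133297.1* to *IFT140* was -5.48 and -7.58 in the wild-type libraries and -6.16 and -6.15 in the resistant ones. Within wild type, the library with more counts of the member had fewer of the host. *AC007922.2* (chr18:24435364-24439638, plus) at *IMPACT*, a translational regulator gene, had 53 and 44, then 26 and 20 counts, and *IMPACT* had 475 and 352, then 367 and 148. Both resistant values lay below both wild-type values in CPM for these members and hosts.

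At *POU2F1*, which encodes the transcription factor OCT1, the sum of the host was lower in resistant cells and the member was not. The *POU2F1* sum had 65831 and 55769 counts in the wild-type libraries and 8180 and 7149 in the resistant ones, for a log2 fold change of -3.37 ± 0.24 (SE; adjusted p = 0.323, edgeR). *AL136984.1* (chr1:167379108-167381000, plus, 1 exon), in intron 9 of 17 of *POU2F1*, had 73 and 61, then 98 and 116 counts, a gene-level log2 fold change of 0.29 ± 0.44 (adjusted p = 0.904). The log2 ratio of *AL136984.1* to *POU2F1* went from -9.76 and -9.77 in wild type to -6.33 and -5.90 in resistant cells. The difference between member and host was not tested.

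The transcripts behind the *POU2F1* sum were examined after its values were seen. The lower sum rested on 1 of 8, ENST00000367865, of 14332 bases, which held 95.7% of the wild-type counts of *POU2F1*. It had 62180 and 54152 counts in the wild-type libraries and 47 and 6030 in the resistant ones, so that the resistant libraries stood far apart (log2 fold change -4.60 ± 2.40 SE; adjusted p = 0.859, edgeR). The other *POU2F1* transcripts together had 3651 and 1617, then 8133 and 1119 counts, with groups that overlapped. Per kilobase of each transcript, the *POU2F1* sum came to 299.8 and 200.03 CPM per kb in the wild-type libraries and 316 and 52.0 CPM per kb in the resistant ones, and the groups overlapped on this scale. The lower value of the *POU2F1* sum thus depends on summing counts without regard to length. The single transcript ENST00000367865 was lower in both resistant libraries (1.03 and 137 CPM) than in both wild-type ones (1726 and 1639 CPM).

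**Figure D4:**
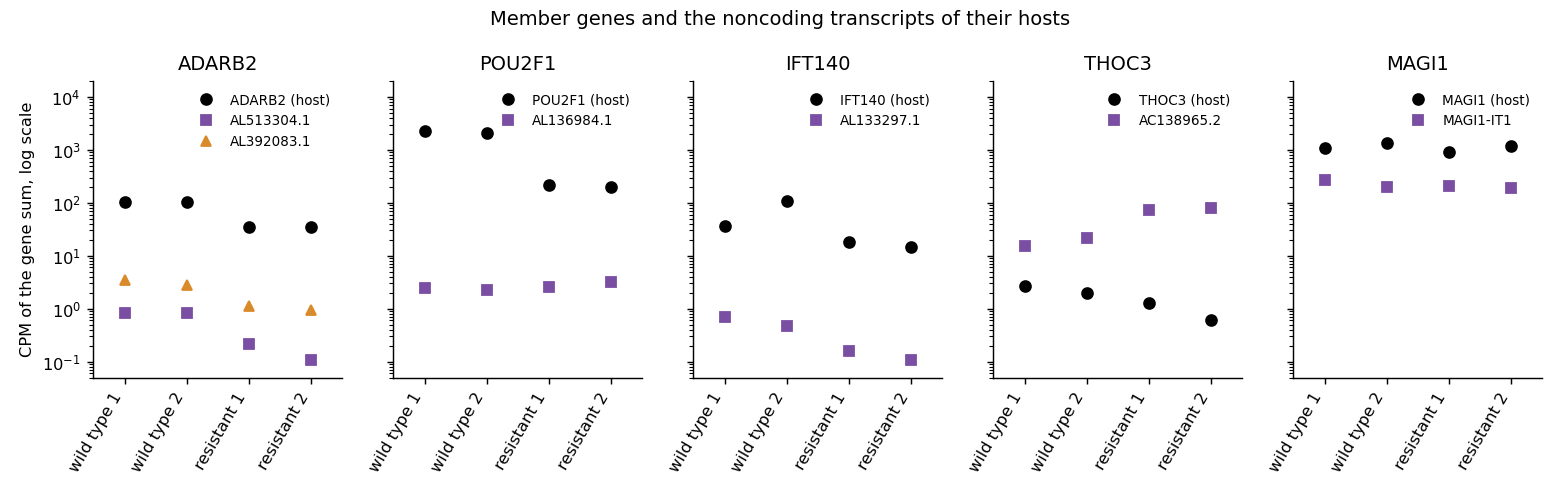
CPM of gene sums in each library (log axis) for 5 hosts, as black circles, and the members inside or across them, as coloured symbols. Members in *ADARB2* and *IFT140* are lower in resistant cells along with the host, *AL136984.1* is not lower where the *POU2F1* sum of counts is, *AC138965.2* is higher where *THOC3* is lower, and *MAGI1-IT1* and *MAGI1* overlap between the groups.

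Over all 430 pairs in which member gene and host passed the filter, in 383 hosts, the log2 fold changes of member and host were weakly related. Spearman's rho was 0.19 and Pearson's r 0.11, given as a description without p, since the pairs share the 4 libraries, some share a host and some may share reads. Members and hosts had the same sign in 247 pairs (57.4%), and the median absolute difference was 0.55. The Spearman coefficient was 0.18 in the 385 sense intronic and 0.20 in the 45 sense overlapping pairs. Leaving out wild-type replicate 2 took rho to 0.11. Pearson's r changed sign with a resistant library left out, to -0.013 without replicate 1 and -0.039 without replicate 2, whereas rho was 0.14 and 0.18. With a mean of at least 50 counts in both, 230 pairs remained, with a rho of 0.24. With only host transcripts that share no exon base with the member, rho was 0.20 over 423 pairs.

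Among the 230 pairs with at least 50 counts, hosts with a log2 fold change above 1 had members with a median of 0.26 (17 higher and 6 lower of 23), and hosts below -1 had members with a median of -0.25 (6 higher and 8 lower of 14). Members of hosts between -0.5 and 0.5 had a median of 0.08 (85 higher and 61 lower of 146). Member medians in the outer bins thus lay within 0.26 of 0, although the hosts of these bins differed by more than 1.

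**Figure D5:**
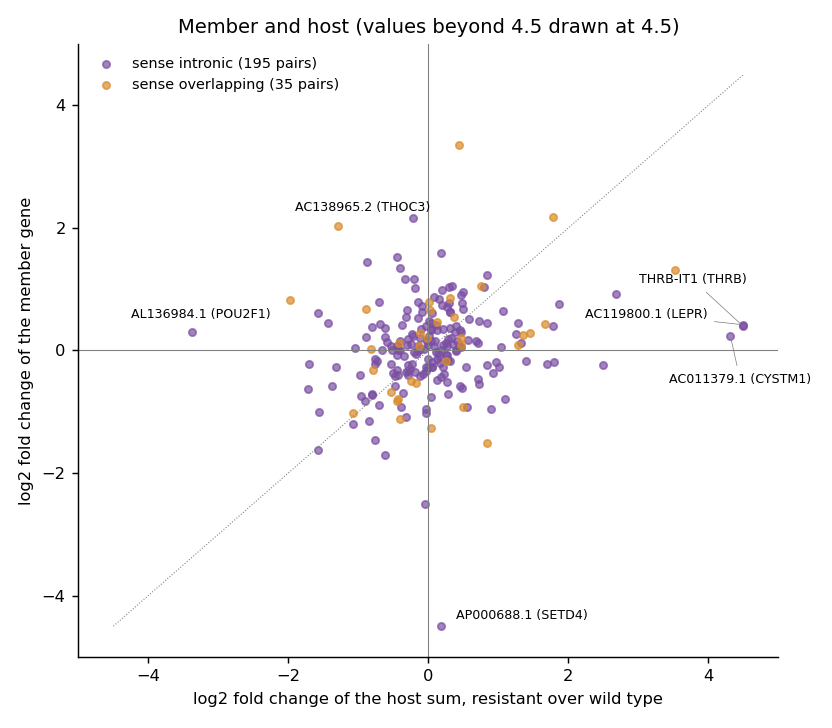
Log2 fold change, resistant over wild type, of each member gene (y axis) against that of the noncoding transcripts of its host (x axis), for the 230 pairs with a mean of at least 50 counts in both, with a dotted line where both are equal. Most pairs lie near 0 in both, and the labelled pairs are those with the largest differences, such as *AL136984.1* in *POU2F1*.

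In 3 of the 6 pairs of largest difference, both resistant libraries of the host lay above both wild-type ones and differed from each other. *THRB-IT1*, in intron 6 of 20 of the thyroid hormone receptor gene *THRB*, had 170 and 117 counts in the wild-type libraries and 267 and 222 in the resistant ones, whereas *THRB* had 0 and 0, then 128 and 805. *AC119800.1*, in the leptin receptor gene *LEPR*, had 38 and 158, then 173 and 178 counts, and *LEPR* had 16 and 15, then 66 and 3700. *AC011379.1*, in *CYSTM1*, had 90 and 51, then 100 and 115, and *CYSTM1* had 61 and 0, then 1077 and 461. The resistant counts of *CYSTM1* came from different transcripts. ENST00000509789 had 1077 and 0 in the resistant libraries, ENST00000509589 had 0 and 361, and ENST00000504227 had 0 and 100. Of the *LEPR* counts in resistant library 2, 3675 were of ENST00000462765, which had no count in any other library. The member had counts in all 4 libraries in these 3 pairs. Among the other 3 pairs, the libraries of a group also lay apart for *SETD4* in wild type (8.25 and 34.9 CPM), for *THOC3* in resistant cells (1.30 and 0.60 CPM) and for single transcripts of *POU2F1*.

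In the pairs of smallest difference, member and host had nearly equal log2 fold changes. *AC100774.1*, in *UBE3A*, an E3 ubiquitin ligase gene, had 99 and 66, then 158 and 123 counts, beside 6364 and 4282, then 9646 and 8502 for *UBE3A*. The log2 ratio of *AC100774.1* to *UBE3A* was -5.96 and -5.96 in the wild-type libraries and -5.90 and -6.07 in the resistant ones. Member and host both had higher CPM in each resistant library than in either wild-type one, with log2 fold changes of 0.39 for *AC100774.1* and 0.39 for *UBE3A*. *AC099506.1* had 499 and 313, then 489 and 615 counts, and its host *CDH13*, the gene of T-cadherin, had 42210 and 17215, then 35402 and 45064. The log2 ratio of *AC099506.1* to *CDH13* was -6.39 and -5.77 in the wild-type libraries and -6.17 and -6.19 in the resistant ones. *AL355336.1* in *RREB1*, a zinc finger transcription factor gene, had 159 and 165, then 183 and 149 counts, against 13787 and 11959, then 14966 and 11990. The log2 ratio of *AL355336.1* to *RREB1* was -6.41 and -6.16 in the wild-type libraries and -6.32 and -6.30 in the resistant ones. On the CPM scale both resistant libraries lay below both wild-type ones for *AL355336.1* and *RREB1*, with log2 fold changes of -0.35 and -0.32, and the groups overlapped for *AC099506.1* and *CDH13*. Each of these members lay at least 14.8-fold below its host per kilobase. The remaining pair of small difference was *MAGI1-IT1* in *MAGI1*, with log2 fold changes of -0.22 and -0.24. Its log2 ratio to *MAGI1* was -2.02 and -2.82 in the wild-type libraries and -2.11 and -2.64 in the resistant ones. This ratio thus differed more within the groups than between them. Of *MAGI1-IT1*, 8.26% lies in exons of a *MAGI1* transcript of the table. *MAGI1-IT1* lay 6.98-fold below its host per kilobase.

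Several hosts held more than 1 member. *CCDC92* held 6 tested sense intronic genes, all with 1 exon and all in its intron 2 of 5, whose log2 fold changes lay between -0.38 and 0.79 (3 higher, 3 lower) beside -0.45 for *CCDC92*. The most abundant of them, *AC068790.3*, had 103 and 71, then 103 and 97 counts, and the nearest to the upstream exon, *AC068790.6*, 25 bases away, had 31 and 31, then 36 and 34. *BIRC6*, the gene of a large inhibitor of apoptosis protein, held 3, all higher in resistant cells by 0.09 to 1.54 in log2, beside -0.45 for *BIRC6*. *BACH1*, a repressor of oxidative stress genes, had 3 tested members from -1.49 to 1.25 beside 0.84 for *BACH1*. Among these, *LINC00189* had no count in 1 resistant library, with its values given in the closing section. In *WWOX*, a gene that spans a fragile site, 3 of 6 members were tested, at -0.55 to 0.69. Members of 1 host may share its transcription, which was not tested, and are not replicates of one another.

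Over members and hosts together, 1066 genes were tested at the level of gene sums. The edgeR test called 0 of them, as it did 0% of all 13745 genes, and 66 had an unadjusted p under 0.05, against 8.67% of all genes, split into 4.74% with a higher and 3.93% with a lower level in resistant cells. limma-voom also called 0 (0% of all genes), and DESeq2 called 35, against 4.6% of all genes.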

How the data were processed

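Total RNA of 2 wild-type and 2 oxaliplatin-resistant libraries of cells labelled HepG2 was analysed, grouped by title. Values are estimated counts as deposited by the authors, in 1 table with a row per transcript and a column of whole numbers per library. All sample columns were used, so 0 were left unused. The labels' protocols give 2 µg of RNA per library and paired-end reads of 150 bases. Aligner, counting tool and annotation were not given in the sources used here. A mouse build, mm9, stands in the submitters' processing notes, whereas 103347 rows carry human Ensembl transcript identifiers, so no coordinate was taken from the notes. GENCODE release 29 on GRCh38 named 84072 of them.

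Members, lists, comparison classes and alternatives were chosen with earlier results of these data known. The host was the same-strand coding gene with the largest overlap, measured as the sum of its transcripts in the table. Counts as deposited were tested in edgeR 4.0.16 (R 4.3.3) with TMM factors, filterByExpr at a minimum count of 10, the quasi-likelihood test and two-sided Benjamini-Hochberg adjustment at 0.05 over all transcripts or all gene sums. Alternatives were limma-voom (limma 3.58.1), DESeq2 1.42.0, other scaling, no filter, a replicate block and leaving out each library. The test was checked on simulated counts with 200 changed features. With a low dispersion it called all 100 of 4-fold and all 100 of 16-fold changes among 41680 transcripts. Levels per kilobase used spliced length. Differences within pairs used log2(CPM + 0.1). Named members were the 8 of highest mean per class, the 8 of smallest p per direction without overlap, members at 0 in one group and at least 100 counts in each library of the other, the 6 pairs of largest and 4 of smallest member-host difference with at least 50 counts, their hosts and sister transcripts. Near-identical copies were sought by aligning 39 named transcripts to all release 29 transcripts, at 90% identity over 50% of the length, and 2 had one. No 2 libraries agreed within sampling noise (chi-square per transcript 240.3 to 300.1), and depth limits the precision as given for counts of 0. Tables and figures used Python 3.11.15, pandas 2.3.3 and matplotlib 3.10.9.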

Additional observations from a re-analysis of the deposited data

How the results depend on the processing

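Members called after adjustment stayed at 0 under RLE scaling, no filter, the replicate block, limma-voom and each left-out library, and came to 11 in DESeq2. Members at an unadjusted p under 0.05, 20 in edgeR, came to 5 with the replicate number as a block, 11 in limma-voom and 9 to 19 with a library left out. The labels do not state whether same-numbered libraries are paired. Deviations of same-numbered libraries from their group means correlated at 0.00844 over 42393 transcripts. With 2 libraries per group this is a single value, and it does not settle whether they are paired. Members and hosts called as gene sums came to 35 in DESeq2 and 0 in the other settings, and those at an unadjusted p under 0.05, 66 in edgeR, came to 45 with the block and 51 to 70 with a library left out.

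Shares of counts depend on the denominator. Over counts with a release 29 gene, sense intronic members held 0.326% and 0.346% and sense overlapping ones 0.296% and 0.392% in wild type and resistant cells, and both together 0.623% and 0.739%. Without the most abundant member these were 0.230% and 0.252%, 0.196% and 0.221%, and 0.455% and 0.510%. With a library left out, the shares lay between 0.257% and 0.261% and between 0.284% and 0.293% for sense intronic members, and between 0.231% and 0.240% and between 0.274% and 0.379% for sense overlapping ones. The correlation of member and host was 0.24 with at least 50 counts in both and 0.11 to 0.18 with a library left out.

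For the 38 named transcripts, 316 of 340 alternatives kept direction and side of the threshold, 10 passed it in DESeq2, and 14, all with a library left out, changed sign. Those log2 fold changes ran from -0.0042 to 1.94 for *MIR31HG*, -0.57 to 0.77 for *AC006064.5*, -1.003 to 1.49 for *AL163051.2*, -0.030 to 0.33 for *AC096947.1*, -0.41 to 0.042 for *MAGI1-IT1* and -0.32 to 0.14 for *AL365436.2*. They ran from -0.11 to 0.47 for *AL731577.2*, -0.27 to 15.37 for *AP000526.1*, -0.16 to 15.01 for *AC087481.3*, -0.28 to 1.89 for *AC119800.1*, -0.052 to 0.64 for *AC011379.1* and -0.16 to 0.39 for *AC099506.1*. The cause of these changes was not tested beyond the library left out. The spread between libraries, not the number of counts, sets the limit for abundant members, and members near 10 counts are limited by counting error as well.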

Other observations

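Some members outside the rule for named transcripts are given here as values, chosen after their values were seen. *VSTM2A-OT1* (chr7:54556970-54571726, plus), a sense overlapping gene at *VSTM2A*, had 271 and 226 wild-type counts against 738 and 869 in resistant cells. Both resistant libraries were above both wild-type ones, with a log2 fold change of 1.33 ± 0.38 (SE; adjusted p = 0.534, edgeR), and DESeq2 called the transcript. *AC103702.1* (chr17:48579630-48582259, minus), a 1-exon transcript within *HOXB3*, covers the whole 110 bases of *MIR10A*, the gene of a miRNA of the HOXB cluster. *AC103702.1* had 21 and 19 wild-type counts against 10 and 9 in resistant cells, with a log2 fold change of -1.43 ± 0.54 (SE; adjusted p = 0.714, edgeR).

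In 3 further members, 1 library stood apart from the rest. *MACROD2-IT1* ENST00000448536, in intron 4 of 20 of *MACROD2*, had 82 and 698 wild-type counts against 187 and 188 in resistant cells, and wild-type library 2 stood above the other 3. *HECW1-IT1*, which holds *MIR3943* in an intron, had 203 and 158 against 208 and 0. *LINC00189* ENST00000420364, at *BACH1*, had 245 and 182 against 0 and 192. By contrast, for *PLCB1-IT1* ENST00000451443, in intron 5 of 41 of *PLCB1*, a phospholipase C gene, both resistant libraries lay above both wild-type ones, with 4 and 49 against 152 and 287 counts. None of these transcripts passed adjustment in edgeR, and an adjusted p of at least 0.868 was found for each.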
